A study of Mus musculus with 13 samples.

Results

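The genome-wide positions of H3K9me3 and H3K27ac were compared in Hepa 1-6 cells, a murine hepatoma line that the labels name Hepa 1.6. Every region of the 2 deposited lists was taken, 66242 for H3K9me3 and 57562 for H3K27ac, which makes 123804 of the 231368 regions and peaks in the 8 lists of the series. The study asked where the corepressor KAP1 binds and how it acts on the RNA polymerases, and the comparison of these marks makes no use of KAP1. Both marks were profiled by ChIP-seq, in which DNA bound by an antibody is sequenced, in cells that the source label places in standard culture. The growth note gives DMEM with 10% FCS. A treatment note repeated on every sample speaks of transduction before fixation, which the source label of these samples does not. The antibodies were Diagenode C15410056 for H3K9me3 and Abcam ab4729 for H3K27ac. Each antibody has 1 library of 1 cell line, so no value below has a replicate error and no test of the marks was possible. As further readouts, the H3K4me1 list of the same culture (74014 regions) and the list of RNA polymerase II (PolII) peaks in control cells (5015 peaks) were used. The source label of these control cells names a control shRNA, where the methods of the study name the empty vector, and they were fixed 5 days after transduction. The read depth behind each list is unknown. Intervals are 95% Wilson intervals over regions or genes and cover counting error only.

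Histone H3 trimethylated on lysine 9 is bound by HP1 proteins and marks silenced chromatin, in mammals above all repeats, zinc finger gene clusters and imprinted loci. Histone H3 acetylated on lysine 27 is deposited by p300 and CBP and marks active promoters and enhancers. H3K4me1 marks enhancers, active or not. In hepatocytes and hepatoma cells, H3K27ac is known for the genes of secreted plasma proteins and of the liver transcription factors that control them.

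Sequence from the middle of the widest H3K27ac region and of the stretch with the most bases held by both marks shows the kinds of DNA covered. Both are from the plus strand of mm9, written 5′ to 3′, with CpG dinucleotides in capitals.
H3K27ac, chr10:96897459-96897658: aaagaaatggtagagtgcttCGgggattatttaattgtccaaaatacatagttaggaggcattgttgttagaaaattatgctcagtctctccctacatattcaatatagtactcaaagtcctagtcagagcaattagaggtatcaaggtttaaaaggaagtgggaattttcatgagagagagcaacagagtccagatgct
Both marks, chr3:92081818-92082017: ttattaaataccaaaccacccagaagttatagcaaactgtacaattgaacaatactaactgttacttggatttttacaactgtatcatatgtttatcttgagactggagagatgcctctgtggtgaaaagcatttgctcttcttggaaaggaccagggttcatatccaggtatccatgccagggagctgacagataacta
To see how often such sequence recurs, the first 31 bases of every 100 bp window were counted over the whole assembly on both strands. The 31-mers of the H3K27ac stretch occurred 1 time each. Those of the stretch with both marks occurred in 2 to 3 places. GC content was 37% and 38.5%, and the stretches held 1 and 0 CpG.

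H3K9me3 was spread over more and narrower regions than H3K27ac. On chromosomes 1 to 19, X and Y, 66241 H3K9me3 regions took up 41.5 Mb, 1.62% of the assembled genome, and the median region measured 324 bp. The remaining H3K9me3 region lay on the mitochondrial chromosome. H3K27ac took up 50.5 Mb, 1.97%, and its median region measured 532 bp. Regions under 200 bp made up 33% of the H3K9me3 list and 14% of the H3K27ac list. At the other end, 624 H3K9me3 regions of 5 kb or more held 11.9% of the bases of that mark, and 721 such H3K27ac regions held 10.3%.

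The widest H3K9me3 region, of 67557 bp at chr8:19916494-19984050, lay over the predicted gene Gm15319 beside the β-defensin cluster, and 50003 bp of it, 74.0%, were also called as H3K27ac. The second, 37860 bp at chrX:3192718-3230577, shared 20.4% of its bases with H3K27ac. The third, 31020 bp at chr1:85063438-85094457 over C130026I21Rik and A530032D15Rik, shared 26.1%. The median 31-mer of these 3 regions occurred in 3 or 4 places of the assembly. The widest H3K27ac region, 27075 bp at chr10:96884022-96911096, was 31148 bp from Dcn, the gene of the matrix proteoglycan decorin. The second, 26716 bp at chr4:63981957-64008672, was 300196 bp from Tnc, which encodes tenascin C. The third, 23900 bp at chr15:61275479-61299378, was 517567 bp from Myc, the growth-promoting transcription factor. These 3 regions had a median 31-mer of 1 copy, and H3K9me3 was called over 0 bp, 0 bp and 2665 bp of them.

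Few regions of either list met one of the other. Of the H3K9me3 regions, 1749 (2.64%, 2.52 to 2.77%) shared at least 1 bp with H3K27ac, and of the H3K27ac regions 2484 (4.32%, 4.15 to 4.48%) shared at least 1 bp with H3K9me3. They formed 2634 pairs and shared 1.01 Mb, 2.44% of the H3K9me3 bases and 2.0% of the H3K27ac bases. Against H3K4me1, the share was 9.58% of H3K9me3 regions (9.36 to 9.81%) and 67.8% of H3K27ac regions (67.4 to 68.2%).

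The overlap was rare, but over the whole genome no rarer than the sizes of the lists give. If each mark were spread evenly over the assembled genome, 0.820 Mb would be shared, and the 1.01 Mb found were 1.23 times that. Without chromosomes X and Y, of which Y shared 0.004 kb, the ratio was 0.924. An excess was not confined to chromosome X. Within single chromosomes the ratio was 1 or more on 7 of 21, such as chromosomes 8 (6.96) and 3 (3.78), and below 1 on 14. The ratio fell as the scale became finer. It was 1.05 when each mark was spread evenly within each chromosome, 0.808 within 5 Mb, 0.775 within 1 Mb and 0.720 within 100 kb. The same ratios for H3K27ac and H3K4me1 were 21.5 over the genome and 8.09 within 1 Mb, and for H3K9me3 and H3K4me1 3.67 and 1.17. Within a neighbourhood the marks therefore shared less sequence than an even spread gives.

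The bases with both marks differed in copy number from those with either mark alone. Where the 31-mers could be counted, 83.2% of the assembled genome was single-copy by this measure. The single-copy share was 93.8% for H3K27ac without H3K9me3, 48.6% for H3K9me3 without H3K27ac and 33.7% for both together. Bases whose 31-mer occurred 2 to 9 times made up 43.8% of the shared sequence, against 29.2% of H3K9me3 alone, 2.75% of H3K27ac alone and 5.33% of the genome. In single-copy windows the shared 341 kb were 0.775 of an even spread, and 0.420 of an even spread within 1 Mb. In windows of 2 to 9 copies the ratio to an even spread was 2.72, in those of 10 to 99 copies 3.37, and in those of 100 or more 2.92. Within 1 Mb the ratio over all windows of 2 or more copies was 1.55. The reads of the study were 100 bp long, so a repeated 31-mer does not show that a read fits several places. How reads that do so were assigned is not given in the sources used here. The part of read placement in the overlap was not tested.

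The pairs were concentrated in few places. A pair was present in 493 of the 1 Mb bins, and the 12 bins with the most pairs, taken after their values were seen, held 1516 pairs (57.6%) and 56.5% of the shared bases. Of these 12, 5 were on chromosome X, and they held from 110 pairs at 32 to 33 Mb to 249 at 4 to 5 Mb. In each of those 5 at least 90.1% of the 31-mers occurred in 2 or more places. The genes there are predicted Gm genes such as Gm10921 and Gm2864, with Gmcl1l among them. The 5 bins held 96.7% of the shared sequence of chromosome X, 48.2% of its H3K9me3 bases and 39.7% of its H3K27ac bases. At 19 to 20 Mb on chromosome 8, with the β-defensin genes Defb4, Defb5 and Defb14, 133 pairs shared 119895 bp. At 87 to 88 Mb on chromosome 1 there were 67 pairs in the bin of the nuclear body genes Sp110, Sp140 and Sp100.

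Of the 5 pairs with the most shared bases, 3 lay in the Sprr2a genes on chromosome 3, which encode small proline-rich proteins of the cornified envelope. The widest, at chr3:92076413-92087422 over Sprr2a3, held 11010 bp of both marks. The others shared 8819 bp at chr3:92052892-92061710 and 8818 bp at chr3:92018080-92026897. The remaining 2 shared 9977 bp at chrX:32106186-32116162, 13623 bp from Gm2964, and 7305 bp at chr8:20012856-20020160, 54067 bp from Gm15319. H3K4me1 was called over all 5, and their median 31-mer occurred in 3 or 4 places. Over all pairs, 2371 also had H3K4me1 in the shared bases. A typical pair shared little, with a median of 196 bp. In 51.9% of pairs the whole H3K27ac region lay inside an H3K9me3 region, and in 13.3% the reverse.

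The share of regions that met the other mark differed with their width. H3K9me3 regions of 5 kb or more met H3K27ac in 131 of 624 cases (21%, 18 to 24.4%), and those of 200 to 500 bp in 393 of 21163 (1.86%, 1.68 to 2.05%). Among H3K27ac regions the share was highest at the extremes. It was 11.3% (10.6 to 12%) under 200 bp, 2.19% (1.92 to 2.51%) from 1 to 2 kb and 10.3% (8.25 to 12.7%) at 5 kb or more.

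The covered share of the chromosomes varied widely, and in different ways for the 2 marks. H3K9me3 ranged from 0.137% of chromosome Y and 0.173% of chromosome 9 to 5.97% of chromosome 15. H3K27ac ranged from 0.00651% of chromosome Y and 0.579% of chromosome X to 4.74% of chromosome 15. Chromosome 15 was the highest for H3K4me1 too, at 10.8%. H3K9me3 covered more than H3K27ac on 8 of the 21 chromosomes. On chromosome X the ratio of H3K9me3 to H3K27ac bases was 2.79 and on chromosome 5, with 3.22% against 1.60%, it was 2.01. On chromosome 9 it was 0.184, on chromosome 16 0.295 and on chromosome 10 0.381.

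**Figure D1:**
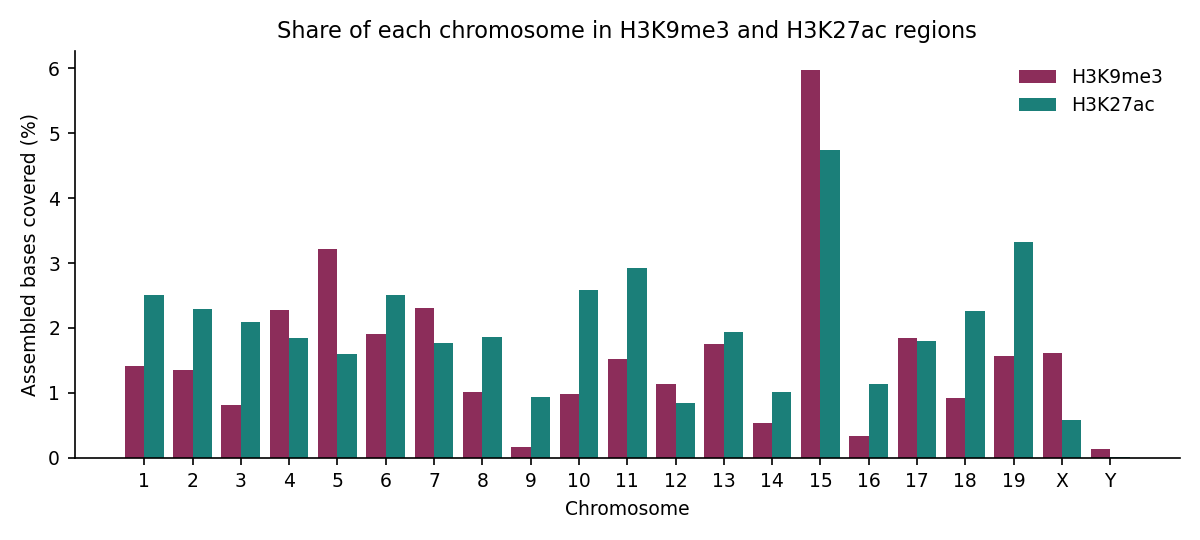
Share of the assembled bases of each chromosome (vertical axis, %) in H3K9me3 regions and in H3K27ac regions, 1 library each, for chromosomes 1 to 19, X and Y. Chromosome 15 is highest for both marks, at 5.97% and 4.74%, and chromosome X holds 1.62% H3K9me3 against 0.579% H3K27ac.

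Over the 20 chromosomes other than Y, the covered shares of the 2 marks had a Spearman correlation of 0.23 and a Pearson r of 0.63. Without chromosome 15 these were 0.10 and 0.21 over 19 chromosomes, so the linear relation rested on that chromosome. For H3K27ac and H3K4me1 the values were 0.89 and 0.95, and 0.87 and 0.93 without chromosome 15. The chromosomes of 1 library share its depth and antibody, so no p is given.

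The overlap relative to an even spread differed widely between chromosomes. The shared bases fell below an even spread within the chromosome on 14 of the 21 chromosomes, and in single-copy windows on 16. On chromosomes 12 and 13 the ratio was 0.0544 and 0.0671, on chromosome 4 it was 0.135 and on chromosome 15 0.384. It was highest on chromosome X, at 17.6, followed by Y at 16.6, on which 4 bp were shared, chromosome 9 at 12.5 and chromosome 8 at 6.96. On chromosome X, 672 of 5651 H3K9me3 regions (11.9%) met H3K27ac. This chromosome held 8.53% of H3K9me3 regions, 3.48% of H3K27ac regions and 39.1% of the pairs. In single-copy windows the ratio was above 1 on chromosomes X (30.1), 9 (4.31), 8 (2.26), 11 (1.74) and 16 (1.23). The shared single-copy bases behind these ratios ranged from 1.73 kb on chromosome 16 to 63.7 kb on chromosome 11. Only chromosome 15, with a ratio below 1, shared more than chromosome 11. Other chromosomes below 1 shared less than chromosome 16, such as chromosome 12 with 0.215 kb. Ratios on both sides of 1 thus rest in part on little sequence.

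In bins of 1 Mb the marks tended to be dense in the same places. Over 2568 bins at least 50% assembled, Spearman's correlation of the covered shares was 0.35 and Pearson's r was 0.16. Counting region centres in place of covered bases gave a Spearman correlation of 0.17. Within single chromosomes the median rank correlation was 0.26, from -0.03 on chromosome 12 to 0.55 on chromosome 19, and it was above 0 on 17 of 20. The rank correlation of H3K27ac with H3K4me1 was 0.87, and that of H3K9me3 with H3K4me1 was 0.56. Both marks were denser in bins with more protein-coding genes, with rank correlations of 0.31 for H3K9me3 and 0.42 for H3K27ac, and in bins of higher GC content, with 0.29 and 0.43. They parted on repeated sequence. Against the share of 31-mers in 10 or more places, the rank correlation was 0.03 for H3K9me3 and -0.41 for H3K27ac. Neighbouring bins and bins of 1 library are not independent, and these values are descriptions. How many copies of each bin these cells carry and how well reads map there were not measured, and their part was not tested.

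The relation depended on the size of the bin. The rank correlation was 0.46 over 507 bins of 5 Mb, 0.35 at 1 Mb, 0.06 over 25641 bins of 100 kb and -0.01 over 255864 bins of 10 kb. The marks therefore went together over megabases, and the rank correlation was near 0 at the smallest size.

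H3K9me3 was the more concentrated of the 2. The 10% of bins with the most H3K9me3 held 65.8% of its bases, against 37.7% for H3K27ac and 46.7% for H3K4me1. The median bin was covered to 0.404% by H3K9me3 and to 1.20% by H3K27ac. No H3K27ac was called in 235 bins and no H3K9me3 in 20. Of the 257 bins in the highest 10% of each mark, 62 were in both, where the sizes alone give 25.7. Of the 62, 19 were on chromosome 15 and 6 on chromosome X. Among the 2116 bins high in neither mark, 44 and 148 were on these chromosomes. The 62 bins had a median of 10.3 protein-coding genes per Mb, close to the 10.0 of the 195 bins high in H3K9me3 alone and the 10.0 of the 195 high in H3K27ac alone. The 2116 bins high in neither mark had 5.00.

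**Figure D2:**
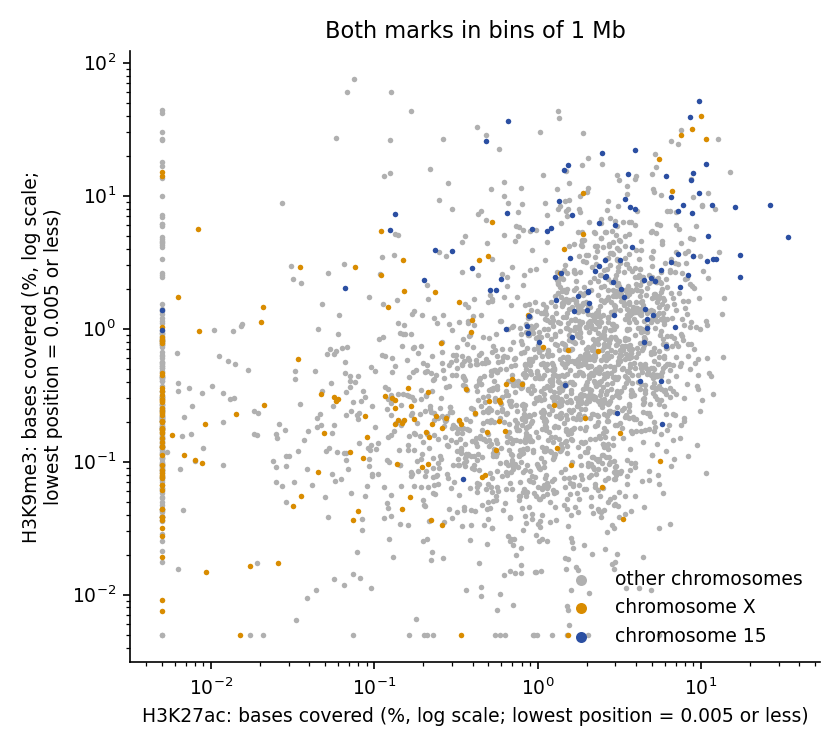
Each point is a bin of 1 Mb, with the share of its assembled bases in H3K27ac regions on the horizontal axis and in H3K9me3 regions on the vertical axis, both in % on log scales with values of 0.005 or less drawn at 0.005. The points form a broad upward cloud (rank correlation 0.35, 2568 bins), with bins of chromosome 15 toward the upper right and many bins of chromosome X at the lowest H3K27ac position.

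Among the bins at least 50% assembled, the 3 with the most H3K9me3 held zinc finger and predicted genes and almost no H3K27ac. At 66 to 67 Mb on chromosome 13, H3K9me3 covered 76.0% and H3K27ac 0.0753%. Zfp640 and several Vmn2r pseudogenes of the vomeronasal receptor family lie there. On chromosome 4, H3K9me3 covered 60% from 146 to 147 Mb, around the zinc finger gene Zfp600, and 59.9% from 145 to 146 Mb, around Rex2. H3K27ac was at 0.0685% and 0.127% in these bins. Among bins assembled to a smaller part, which were not ranked, 85 to 86 Mb on chromosome 1 had 80.1% H3K9me3 and 14.6% H3K27ac over its assembled bases.

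The 3 bins with the most H3K27ac were all on chromosome 15. The bin at 61 to 62 Mb, where Myc is the only protein-coding gene, was covered to 34.3% by H3K27ac, 51.4% by H3K4me1 and 4.91% by H3K9me3. The bin at 59 to 60 Mb was at 26.5% H3K27ac and 8.52% H3K9me3. It holds Sqle, a sterol synthesis enzyme, and Trib1, a pseudokinase that regulates lipid metabolism in liver. The bin at 54 to 55 Mb, with the lysophospholipase gene Enpp2 and the mTOR regulator Deptor, was at 17.4% and 3.56%. H3K9me3 in all 3 was above the 1.17% that marks the upper quartile of bins. Over the 100 bins of chromosome 15, H3K9me3 ranged from 0.0745% to 51.5% with a median of 2.91%, and H3K27ac from 0% to 34.3% with a median of 3.03%.

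Ranked by the lower of the 2 marks among bins at least 50% assembled, the first was 149 to 150 Mb on chromosome 6, with 15% H3K9me3 and 15.1% H3K27ac. Its genes include Bicd1, a dynein adaptor, and Amn1. The next were 19 to 20 Mb on chromosome 8 (26.7% and 12.7%) and 31 to 32 Mb on chromosome X (26.6% and 10.8%). In the bin on chromosome X, 75.7% of the 31-mers occurred in 10 or more places, in that on chromosome 6 12.4%.

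The distance between the marks was close to that of the genome at large. From an H3K9me3 region to the nearest H3K27ac region the median was 68.2 kb, and from points placed every 10 kb over the assembled genome (255870 points) 58.0 kb. From H3K27ac to the nearest H3K9me3 the median was 34.9 kb, against 36.2 kb from the points. For comparison, H3K27ac regions lay at a median of 0 kb from H3K4me1, against 43.9 kb from the points. Long separations were more common for H3K9me3, of whose regions 2203 (3.33%) had no H3K27ac within 1 Mb, against 2.13% of the points. Of the H3K27ac regions, 10 had no H3K9me3 within 1 Mb.

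The immediate surroundings of H3K9me3 were poor in H3K27ac. Sequence inside H3K9me3 regions was covered to 2.43% by H3K27ac, and sequence up to 500 bp outside to 0.856%. From 500 bp to 1 kb the cover was 1.04%, from 1 to 2 kb 1.41%, from 2 to 5 kb 2.09% and from 5 to 10 kb 2.34%, the highest value outside. It then declined to 1.94% at 50 to 100 kb and 1.09% beyond 500 kb. In single-copy windows the cover was 1.69% inside, 1.05% within 500 bp and 2.65% at 5 to 10 kb, so the low flank of about 2 kb was present there as well. H3K4me1 had a like dip, with 10.2% inside, 2.32% at 500 bp to 1 kb and 3.33% at 5 to 10 kb.

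Seen from H3K27ac the picture depended on copy number. Over all sequence, H3K9me3 covered 2.0% inside H3K27ac regions, 2.56% within 500 bp and 1.49% at 20 to 50 kb. In single-copy windows it was 0.729% inside, 0.905% within 500 bp, 1.24% at 2 to 5 kb, the highest value, and 0.319% beyond 500 kb. The direction near H3K27ac thus differed between all windows and single-copy windows.

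**Figure D3:**
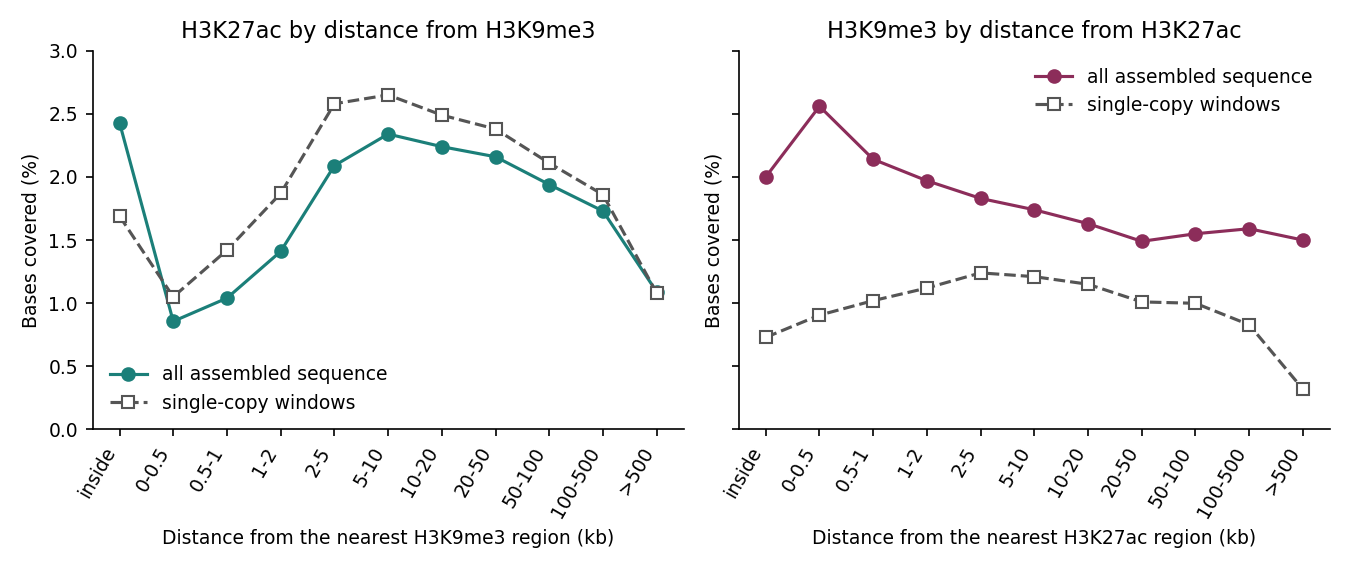
Share of assembled bases (vertical axis, %) covered by H3K27ac at increasing distance from the nearest H3K9me3 region (left) and by H3K9me3 at increasing distance from the nearest H3K27ac region (right), in kb, for all sequence (filled circles) and for windows whose 31-mer occurs 1 time (open squares). H3K27ac is lowest in the first 0.5 kb outside H3K9me3, at 0.856% and 1.05%, and highest outside at 5 to 10 kb. H3K9me3 is highest within 0.5 kb of H3K27ac over all sequence but not in single-copy windows.

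Along the chromosomes regions of the same mark tended to follow each other. When both lists were ordered together, 21425 of 123782 neighbouring regions (17.3%) were of different marks, where the list sizes on each chromosome give 47.5%. The value for H3K4me1 and H3K27ac was 51.4% against 48.3%. For H3K9me3 and H3K4me1 it was 23.3% against 47.8%, so a low value was not particular to the pair with H3K27ac. H3K9me3 fell into 10728 uninterrupted runs and H3K27ac into 10718. Most runs were short, with a median of 2 and 3 regions, and 4162 and 2890 of them were single regions. Runs of 20 or more regions held 48.6% of H3K9me3 regions and 25.1% of H3K27ac regions. Runs of 100 or more held 20.4% of H3K9me3 regions, in 58 runs, and no H3K27ac regions.

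The longest H3K9me3 run counted 929 regions over 4.61 Mb at chr7:7110601-11724675, with H3K9me3 on 14.7% of its bases. Of its 44 protein-coding genes, 30 were vomeronasal receptors, which detect pheromones. The second, of 781 regions at chr4:60095014-61511416, was covered to 45.6%, and all of its 15 protein-coding genes were major urinary protein genes, from Mup2 to Mup5. These encode pheromone carriers that the male mouse liver secretes. The third, of 683 regions at chr5:94950570-96286977, was covered to 39.7% and held 16 predicted Gm genes among 18. Repeated 31-mers, in 10 or more places, made up 36.2%, 56.2% and 30.5% of these runs.

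The longest H3K27ac run, 96 regions over 1.16 Mb at chr4:115721016-116883410, contained 34 protein-coding genes, among them Prdx1, an antioxidant enzyme, and Urod of haem synthesis. The second, 94 regions at chr15:101806137-102303274, began at Krt8 and Krt18, the keratins of hepatocytes, and contained the translation factor gene Eif4b and the transcription factor gene Sp1. The third, 66 regions at chr7:107854135-108699527, contained 11 genes, such as Stard10, a lipid transfer protein. Repeated 31-mers made up 9.06%, 6.36% and 4.05%.

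The marks seldom shared a promoter, taken as the study does as 250 bp to each side of the 5′ end of a gene. Of 22367 protein-coding genes, 1172 (5.24%) had H3K9me3 there and 4464 (20.0%) had H3K27ac. These counts depend on the width, with 1648 and 7879 genes at 1 kb to each side and 2212 and 8620 at 2.5 kb, so the shares by gene list below hold for the narrow window. Both were present at 42 promoters (0.188%), where the product of the 2 shares gives 234, a ratio of 0.180. At 1 kb and 2.5 kb to each side, 96 and 282 had both, with ratios of 0.165 and 0.331. In the narrow window H3K27ac was found at 3.58% (2.66 to 4.81%) of promoters with H3K9me3 and at 20.9% (20.3 to 21.4%) of those without. Over whole genes this separation was absent. H3K9me3 was present in 5251 genes (23.5%), H3K27ac in 9310 (41.6%) and both in 2443, 1.12 times the product of the shares. Genes with both had a median length of 87.4 kb, those with only H3K27ac 21.3 kb, those with only H3K9me3 21.9 kb and those with neither 7.08 kb.

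A control PolII peak lay at 2941 promoters (13.1%). It was found at 1766 of 4422 promoters with H3K27ac alone (39.9%, 38.5 to 41.4%), at 1161 of 16773 with neither mark (6.92%, 6.55 to 7.32%), at 12 of 1130 with H3K9me3 alone (1.06%, 0.609 to 1.85%) and at 2 of 42 with both (4.76%, 1.32 to 15.8%). The interval of the promoters with both marks lay wholly below that of H3K27ac alone and was too wide to set them apart from H3K9me3 alone or from neither mark. By H3K4me1 they stood apart, with 35 of 42 (83.3%, 69.4 to 91.7%), against 34.4% with H3K27ac alone and 5.04% with H3K9me3 alone. The PolII cells were transduced and the cells of the histone marks are labelled as standard culture, so the readouts are of different cultures.

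Both readouts were low at starts within or close to H3K9me3. Of 699 genes whose 5′ end lay inside H3K9me3, 4.58% (3.26 to 6.39%) had H3K27ac over the promoter and 7 had PolII (0.486 to 2.05%). Of 950 genes whose 5′ end lay up to 1 kb outside H3K9me3, 2.84% (1.96 to 4.10%) had H3K27ac over the promoter, of 383 genes at 1 to 2 kb 13.3% (10.3 to 17.1%) and of 1186 at 2 to 5 kb 21.8% (19.6 to 24.3%). From 10 to 50 kb the share was 22.8% (21.9 to 23.7%) and beyond 50 kb 20.0% (19.2 to 20.9%). For PolII outside H3K9me3 the corresponding shares were 1.89%, 7.57%, 12.7%, 16.0% and 12.8%.

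Promoters with both marks were mostly repeated sequence. The median 31-mer of the promoter occurred in 2 or more places for 34 of the 42 (81.0%), for 32.9% (30.2 to 35.7%) of promoters with H3K9me3 alone, for 1.74% (1.40 to 2.17%) with H3K27ac alone and for 7.08% (6.70 to 7.47%) with neither. Of the 42, 22 were predicted Gm genes, against 300 of 1130 with H3K9me3 alone, 96 of 4422 with H3K27ac alone and 1613 of 16773 with neither. In all, 12 of the 42 lay in the first 4 Mb of chromosome 9. By shared bases the first was Sfi1, a centrosome gene at chr11:3031853-3093466, whose 61.6 kb were covered to 93.1% by H3K9me3 and to 79.7% by H3K27ac. Next were Sprr2a2, at 94.4% and 94.2%, and Sprr2a3, at 93.2% and 89.6%. Gm15319 was covered to 100% and 83.6%, Sp140 to 92.4% and 22.8%, and A530032D15Rik to 95.5% and 32.9%. All 6 had H3K4me1 over the promoter and none had control PolII.

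Among genes without H3K27ac, Sdk1, an adhesion molecule of neurons, had the most H3K9me3. Its 974 kb at chr5:141717444-142691540 held 301816 bp, 31%. Obox3, an oocyte homeobox gene on chromosome 7, held 81227 bp (50.7%), the cadherin gene Cdh4 68920 bp (15.1%), and the glycosyltransferase gene B3galtl 56876 bp (67.4%). Adcy8, an adenylate cyclase, held 56112 bp (25.1%). In these 5 genes the promoter was included, and none had H3K4me1 or control PolII there.

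Among genes without H3K9me3, Pdlim5, a cytoskeletal PDZ and LIM protein, had the most H3K27ac, 50545 bp or 32.6% of the gene. Sgms1, a sphingomyelin synthase, held 49493 bp (18.5%), and Vmp1, a membrane protein of autophagy, 42918 bp (42.9%). Lmo7 held 42176 bp (19.2%), Cobll1 40289 bp (26.7%) and Rad51l1, a recombination gene, 39608 bp (7.83%). H3K27ac reached the promoter of 3 of them, Pdlim5, Sgms1 and Cobll1. PolII was called at the promoters of Pdlim5, Sgms1 and Vmp1.

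In a further arrangement both marks lay in a gene, with H3K27ac at its start. H3K27ac over the promoter with H3K9me3 elsewhere in the gene was found in 814 genes (3.64%). Katnal1, a relative of the microtubule-severing enzyme katanin, had 37958 bp of H3K9me3 and 17018 bp of H3K27ac. Ano6, a lipid scramblase gene on chromosome 15, had 36765 bp and 61490 bp, of which 6910 bp were shared. The zinc finger gene Zfat had 35424 bp and 1431 bp, 3300002I08Rik 35348 bp and 1754 bp, the DNA repair gene Mgmt 27009 bp and 1185 bp, and the complement protease gene C1s 24965 bp and 12268 bp. In these 4 no base was shared.

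The Zfp genes, which encode zinc finger proteins, had the largest share with this arrangement among the 23 lists taken. Of 371, 69 (18.6%) had it, against the 3.64% of all genes. Housekeeping genes, with 3 of 18 (16.7%), and liver transcription factor genes, with 2 of 19 (10.5%), came next and rest on few genes. H3K27ac lay over 113 of the Zfp promoters (30.5%, against 20.0% of all genes) and H3K9me3 over 26 (7.01%, near the 5.24% of all genes), with both over 0. H3K9me3 lay somewhere in 209 Zfp genes (56.3%, against 23.5%). Along 366 Zfp genes of at least 2 kb, mean H3K27ac cover was 18.2% in the kilobase before the start and 14.3% in the first 10% of the gene, and dropped to 0.95% in the ninth step of 10. H3K9me3 rose from 4.44% in the first step to 23.2% in the ninth and was 12.5% in the first kilobase past the end. Along all 19074 genes of that length, H3K27ac was 15.4% before the start and 1.67% in the ninth step, and H3K9me3 stayed between 2.08% and 2.40% within the gene. The average gene thus did not show the rise of H3K9me3 toward the end. The members of this family share sequence, and reads could be placed at the wrong member.

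**Figure D4:**
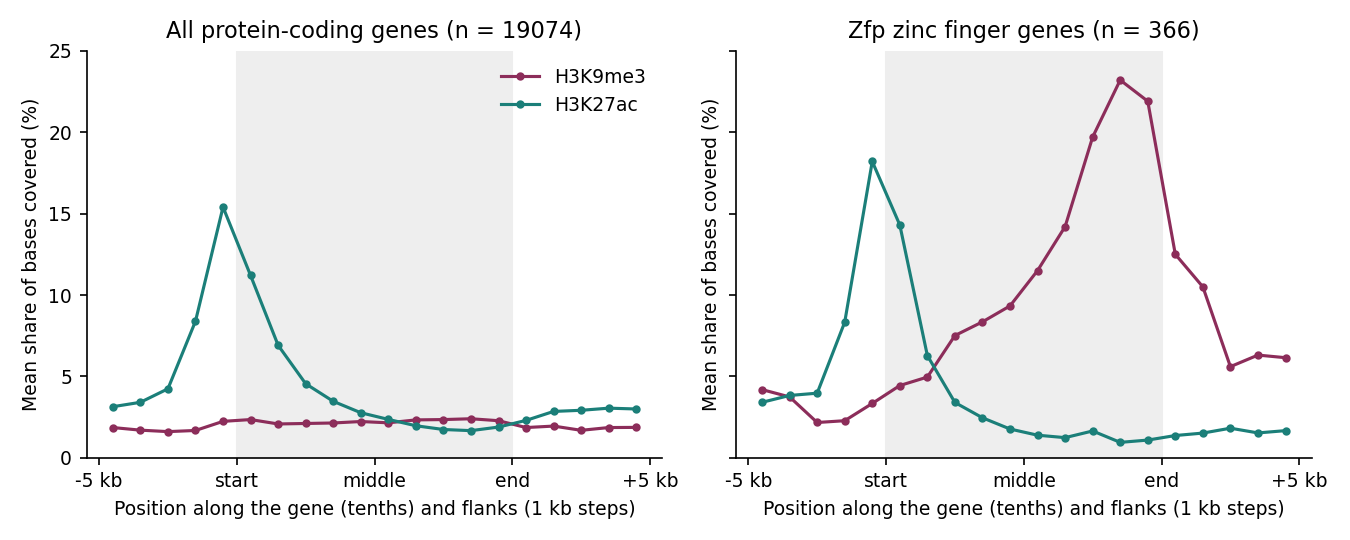
Mean share of bases covered (vertical axis, %) by H3K9me3 and H3K27ac along genes cut into 10 equal steps (grey), with 5 kb to each side in steps of 1 kb, for all protein-coding genes of at least 2 kb (left, 19074) and for Zfp genes (right, 366). H3K27ac peaks at the start in both, at 15.4% and 18.2%, and H3K9me3 rises to 23.2% near the end of Zfp genes, against at most 2.40% within the average gene.

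Several lists of genes that most cells use had larger shares of promoters with H3K27ac than the 20.0% of all genes. It lay over the promoter of 50 of 83 ribosomal protein genes, 37 of 76 mitochondrial ribosomal protein genes (48.7%), 20 of 43 genes of respiratory complex I (46.5%), 17 of 41 proteasome subunit genes (41.5%) and 30 of 67 replication-dependent histone genes (44.8%). Apart from the first list, fewer than 50% of the promoters had the mark within this narrow window. Over the whole gene it was found in 72, 60, 32, 32 and 34 members of these lists in the same order, 50.7% to 86.7% of a list, against 41.6% of all genes. H3K9me3 lay over none of the promoters of these 5 lists, against 5.24% of all. Of 18 housekeeping genes, 11 had H3K27ac over the promoter, including Actb (β-actin) and Gapdh of glycolysis, and 0 had H3K9me3 there. Somewhere in the gene, H3K9me3 lay in 4 of the 18 (22.2%, near the 23.5% of all genes). Ribosomal protein and histone genes have near-identical copies, and reads could be shared between them.

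Part of the markers of hepatocytes carried H3K27ac. Of 12 hepatocyte markers, 7 had H3K27ac over the promoter and 0 had H3K9me3 there. Among the 7 were Alb (albumin), Afp (α-fetoprotein), Trf (transferrin) and the transcription factor genes Hnf4a, Foxa2 and Foxa3. The 5 without it, Ttr, Apoa1, Apoa2, Apob and Foxa1, had no region of either mark over the gene. In the wider lists, 7 of 25 plasma protein genes (28.0%) and 6 of 19 liver transcription factor genes (31.6%) had promoter H3K27ac, not far from the 20.0% of all genes at this number of members. None had promoter H3K9me3, which at 5.24% of all genes sets these short lists little apart. F7 and Serpina1a, a clotting factor and a protease inhibitor, held 257 bp and 315 bp of H3K9me3 inside the gene and no H3K27ac. None of 17 markers of other cell types, among them Ptprc of blood cells, had either mark over the promoter. Within these genes each mark was found in 4 (23.5%), which for H3K9me3 is the 23.5% of all genes and for H3K27ac is below the 41.6% of all. The H3K27ac lay in Pecam1 of endothelial cells (2505 bp), Itgam of myeloid cells (1643 bp), Krt5 of basal epithelium (1635 bp) and Snap25 of neurons (1357 bp). H3K9me3 was called over 41095 bp of Rbfox3, a neuronal splicing factor, and over 233 to 567 bp of the other 3.

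Imprinted genes, which are expressed from a single parental copy, were the list with the largest share of promoter H3K9me3. It lay over 14 of 22 promoters (63.6%), against 5.24% of all genes, and H3K27ac over 0. They included Peg3, Peg10, Igf2, Cdkn1c, Plagl1, Grb10 and Igf2r. H3K9me3 over the whole gene ranged from 495 bp in Igf2r to 14882 bp in Slc38a4 among the 14. H3K27ac was found somewhere in 4 of the 22 genes (18.2%, against 41.6% of all genes), and all 4 also held H3K9me3. A control PolII peak was also called at 3 of the 14 promoters, those of Mcts2, Nnat and Zrsr1, where 13.1% of all promoters and 1.06% of those with H3K9me3 alone had one. In these 3 genes the lists cannot tell the parental copies apart.

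Major urinary protein genes followed, with promoter H3K9me3 at 10 of 21 and H3K9me3 somewhere in 18 of 21 (85.7%, against 23.5% of all genes). H3K27ac was found in 1 of the genes and at 0 promoters. Hox genes, which pattern the body axis, had promoter H3K9me3 at 7 of 40 (17.5%) and promoter H3K27ac at 1, and H3K9me3 lay in 22 of the genes (55.0%). Promoter H3K9me3 was also found at 3 of 24 clustered protocadherin genes (12.5%), 5 of 51 keratin genes (9.80%) and 5 of 53 defensin genes (9.43%), small counts not far from the 5.24% of all genes. Promoter H3K27ac lay at 0, 4 (7.84%) and 0 of them, against 20.0% of all.

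Olfactory receptor genes, expressed in sensory neurons of the nose, had few promoters with either mark. Of 1113 olfactory receptor genes, 28 had promoter H3K9me3 (2.52%) and 10 promoter H3K27ac (0.898%), both below the 5.24% and 20.0% of all genes. Of 322 vomeronasal receptor genes, 16 had promoter H3K9me3 (4.97%), near the share of all genes, and 4 promoter H3K27ac (1.24%). H3K9me3 lay in 66 of these genes (20.5%, against 23.5% of all) and took up 3.85% of their bases, against 1.34% over all genes. None of 35 bitter taste receptor genes held a region of either mark over the gene. Germ cell genes had 1 promoter of 22 with H3K9me3, that of Dazl (4.55%, near the 5.24% of all genes). H3K27ac lay over 1 promoter, that of Spo11 (4.55%, against 20.0% of all). H3K9me3 lay somewhere in 10 of these genes (45.5%, against 23.5% of all), with 5011 bp in Tdrd1, a component of the piRNA pathway.

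Of 97 cytochrome P450 genes, which encode enzymes of drug and steroid metabolism, 7 had promoter H3K9me3 (7.22%, against 5.24% of all genes) and 9 promoter H3K27ac (9.28%, against 20.0%), and H3K9me3 lay in 42 of the genes (43.3%, against 23.5% of all). Of 21 UDP glucuronosyltransferase genes, 10 held H3K9me3 (47.6%, against 23.5% of all), 12 held H3K27ac (57.1%, against 41.6%) and 9 held both. Serpin genes, mostly of protease inhibitors, had promoter H3K27ac at 8 of 60 (13.3%) and promoter H3K9me3 at 0. The members of these families lie in clusters, share sequence and in some cases exons, so their counts are not independent.

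**Figure D5:**
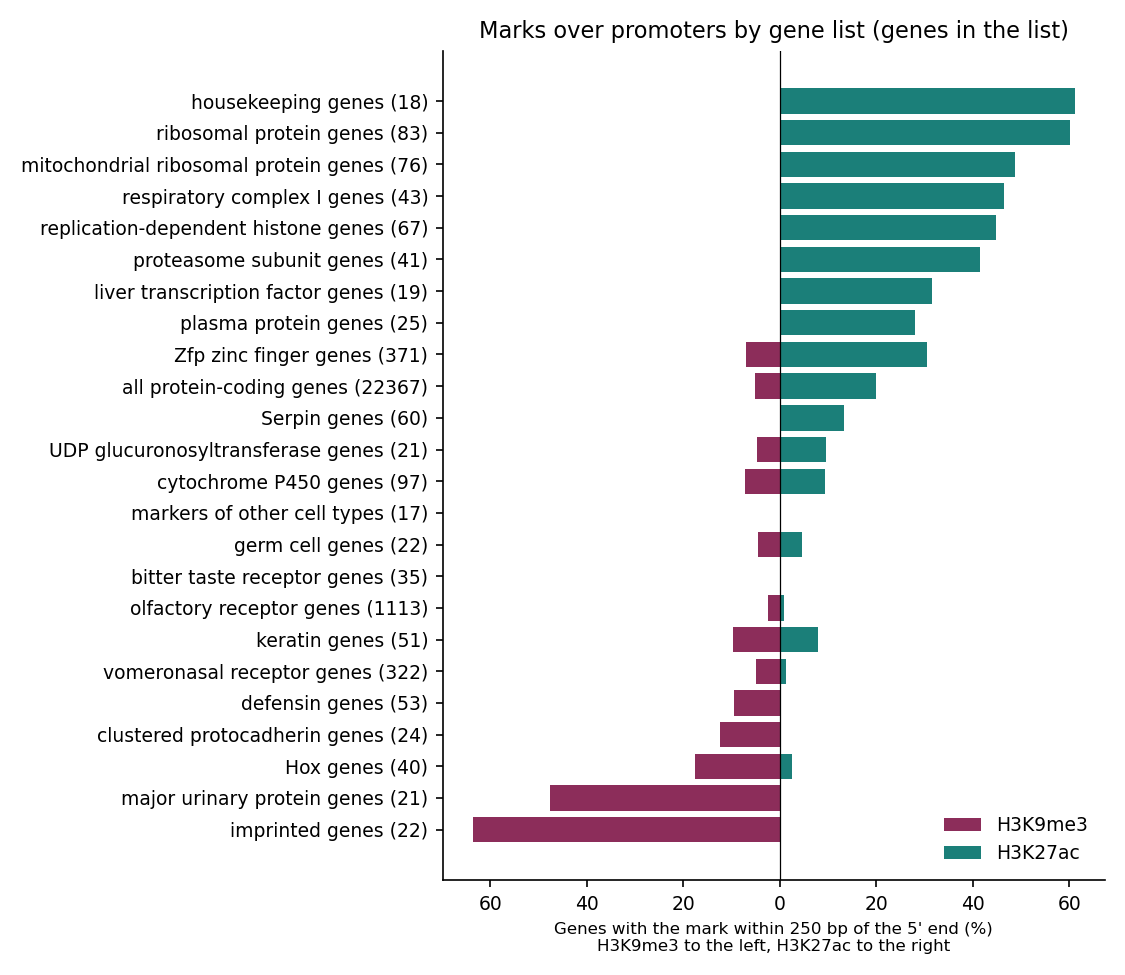
Share of genes (%) with H3K9me3 (to the left of 0) and with H3K27ac (to the right) within 250 bp of the 5′ end, for each gene list and for all 22367 protein-coding genes, with the number of genes in parentheses. Imprinted and major urinary protein genes reach 63.6% and 47.6% for H3K9me3 with no H3K27ac, and housekeeping and ribosomal protein genes 61.1% and 60.2% for H3K27ac with no H3K9me3.

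The sequence of the regions differed as well. Median GC content was 46.5% in H3K9me3 regions and 42.0% in H3K27ac regions, against 41.5% in all assembled 1 kb windows. The quartiles were 42.0% and 50.6% for H3K9me3, and 37.8% and 46.4% for H3K27ac. Median CpG density was 10.3 per kb for H3K9me3, 8.65 for H3K27ac and 7.0 for the windows. At least 50 CpG per kb, the density of CpG-rich sequence, was reached by 3860 H3K9me3 regions (5.83%), 1196 H3K27ac regions (2.08%) and 0.587% of the windows. The regions vary in width and the windows do not, so the spread of these densities is not on the same footing.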

How the data were processed

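H3K9me3 and H3K27ac were compared with 1 library each, and H3K4me1 and control PolII served as further readouts. The authors mapped reads with Bowtie to mm9, called the histone regions with ChIP-part and the PolII peaks with MACS against total input. The options were not given in the sources used here. The deposited lists hold start and end positions without a score or read count, so depth is unknown. The other 4 lists of the series and the inputs were not used here.

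Coordinates lay within mm9, and the NCBIM37 assembly with GENCODE M1 protein-coding genes was used, counting from 1. Overlap needed 1 bp. An even spread is the product of the covered shares. Windows of 100 bp were classed by the count of their first 31-mer. Python 3.11.15, numpy 2.4.6, scipy 1.17.1, numba 0.67.0, pysam 0.24.0 and samtools 1.23.1 were used. Shared bases, overlap counts, edge distances, neighbours, runs and 31-mer counts were checked on lists and sequences with known answers. Ratios, correlations, intervals and sequence content were not.

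Named were the widest regions and longest runs (3 of each mark), the 5 pairs with most shared bp, the 3 highest bins by each mark and by the lower of both, 6 genes of each arrangement, and members of the gene lists. The members and lists were chosen with earlier results of these data known. Alternatives were other overlap rules, bin sizes, promoter widths, the wider 50% of each list, and leaving out chromosomes 15 or X and Y. Some named genes and the sequence of 1 region are not reported here.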

Additional observations from a re-analysis of the deposited data

How the results depend on the processing

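No paired analysis was possible because each antibody has 1 library and the result comes from no test. Of 40 alternatives, 10 stayed close to the value reported. For shares, distances and ratios that means within its counting interval, and for the rank correlation over bins (0.35) they gave 0.34 without chromosome 15, 0.34 without X and Y and 0.35 over all bins. The median GC contents were equal as printed. The share of H3K9me3 regions meeting H3K27ac (2.64%) was 2.21% when at least 50% of the smaller region had to be shared, 5.07% within 1 kb, 1.67% in the wider 50% of each list and 1.78% without chromosomes X and Y. The ratio of shared bases to an even spread (1.23) was the result least settled by the data. It was 1.14 in the wider 50%, 1.37 without chromosome 15 and 1.05 within chromosomes, but it turned below 1 without chromosomes X and Y (0.924), over 10 kb windows with any region (0.308), which leaves out windows with neither mark by construction, within 1 Mb (0.775), in single-copy windows (0.775), and in single-copy windows within 1 Mb (0.420). The within-chromosome, within-1 Mb and single-copy settings were chosen after seeing the data. The rank correlation over bins (0.35) was 0.46 at 5 Mb, 0.06 at 100 kb, -0.01 at 10 kb, and 0.17 when region centres were counted. The median distance to H3K27ac (68.2 kb) was 99.9 kb in the wider 50% and 72.9 kb without chromosome 15. The median distance to H3K9me3 (34.9 kb) was 61 kb in the wider 50%, 37.4 kb without chromosome 15, 35.8 kb without X and Y, and 35.6 kb between centres. Fewer regions lengthen distances by construction. Unlike neighbours (17.3%) were 25.5% after joining regions within 1 kb, where the list sizes give 46.6%, and 18.2% in the wider 50%. Promoters with both marks (42) numbered 96 with 1 kb to each side, 282 with 2.5 kb, 152 over any transcript start and 24 in the wider 50%. Their ratio to the product of shares (0.180) stayed below 1 throughout, at 0.331 with 2.5 kb and 0.424 over any transcript start. Where no cause is named, the cause was not tested. Without replicates or read counts, neither the calling threshold nor the depth of either list could be varied, and a region that was not called is not a region without the mark.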

Other observations

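Both marks covered more of the gene-rich bins. When the 1 Mb bins were divided into 5 equal parts by protein-coding genes per Mb, mean H3K27ac cover was 0.882%, 1.43%, 2.36%, 2.30% and 2.93% from the poorest to the richest part, and mean H3K9me3 cover was 0.686%, 1.15%, 1.53%, 2.53% and 2.32%. Mean H3K4me1 cover was 0.767%, 1.60%, 3.18%, 3.38% and 5.07%. The share of H3K9me3 bases that also held H3K27ac was 0.885%, 2.5%, 2.70%, 1.31% and 3.36% in the same order, with no steady rise.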
